A study of Mus musculus with 8 samples.

Results

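The 9 genes described here are transcription factors that mark where in the body a muscle comes from: the T-box factors Tbx1, Tbx3, Tbx4, Tbx5 and Tbx15, the homeobox factors Pitx1 and Lbx1, and the basic helix-loop-helix factors Msc and Tcf21. They were taken by name from the 24980 gene symbols of the count table, and all 9 had enough counts to be tested. The series holds 8 mouse RNA libraries from myogenic cells, in 4 groups of 2 biological replicates. TF cells were freshly isolated progenitors from teratomas, mixed-tissue tumors that mouse embryonic stem cells form. The study raised teratomas from EGFP-labeled cells in irradiated, cardiotoxin-injured tibialis anterior muscle of NSG-mdx4Cv mice, which lack dystrophin and a working immune system. TE cells were such progenitors grown to passage 8 on gelatin in expansion medium. SF were freshly isolated endogenous satellite cells, which regenerate adult muscle, and SE were such cells after growth to passage 8 under the same conditions. The teratoma cells were sorted as EGFP+ CD31- CD45- cells carrying α7-integrin and VCAM-1. The study mainly used E14-EGFP stem cells, and the labels name no line for these libraries. The strain and age of the satellite cell donors and the muscles they came from are not given in the sources used here, so cell origin cannot be told apart from strain, sex, age or muscle.

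Skeletal muscles do not all share one developmental history. Trunk and limb muscles come from the somites, and Lbx1 marks the precursors that migrate from there into the limbs, tongue and diaphragm. Jaw and other head muscles arise from unsegmented mesoderm, in which Tbx1, Msc (musculin) and Tcf21 (capsulin) act upstream of the myogenic factors. In the limb, Pitx1 and its target Tbx4 belong to the hindlimb and Tbx5 to the forelimb, largely in the connective tissue through which muscle is patterned. Satellite cells of adult muscle keep part of this regional expression.

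The libraries held between 11930961 and 21146632 counts. Levels are CPM, counts scaled to library size after TMM normalization as in the tests, and 1 count was worth between 0.0471 and 0.0841 CPM. Pax7, the satellite cell factor, was present in all 8 libraries at 78.2 to 319 CPM. The fresh libraries also held RNA of other cell types. The summed level of 9 fibro-adipogenic markers was 5303 to 5964 CPM in TF and 1492 to 2514 in SF, against 14.3 to 16.7 in TE and 36.9 to 83.4 in SE. Most of the TF sum was Col15a1, at 3161 and 3820 CPM against 292 and 495 in SF. The other markers did not all differ that way. Dcn had 875 and 793 CPM in TF and 557 and 951 in SF, and Smoc2 135 and 143 in TF and 160 and 303 in SF. TF1 held 347 CPM of 6 haematopoietic markers and TF2 29.9. Of the other lists, the pericyte and smooth muscle sum was 599 to 1902 CPM, the Schwann sum 2.28 to 63.9, the neural sum 5.92 to 88.7 and the pluripotent sum 0 to 9.88, and the cardiac sum was 0.740 to 54.4 CPM in fresh and 444 to 1449 in expanded libraries, most of it Tnnt2 in the expanded libraries. In bulk RNA, fewer cells of a type and less RNA per cell cannot be told apart.

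**Figure D1:**
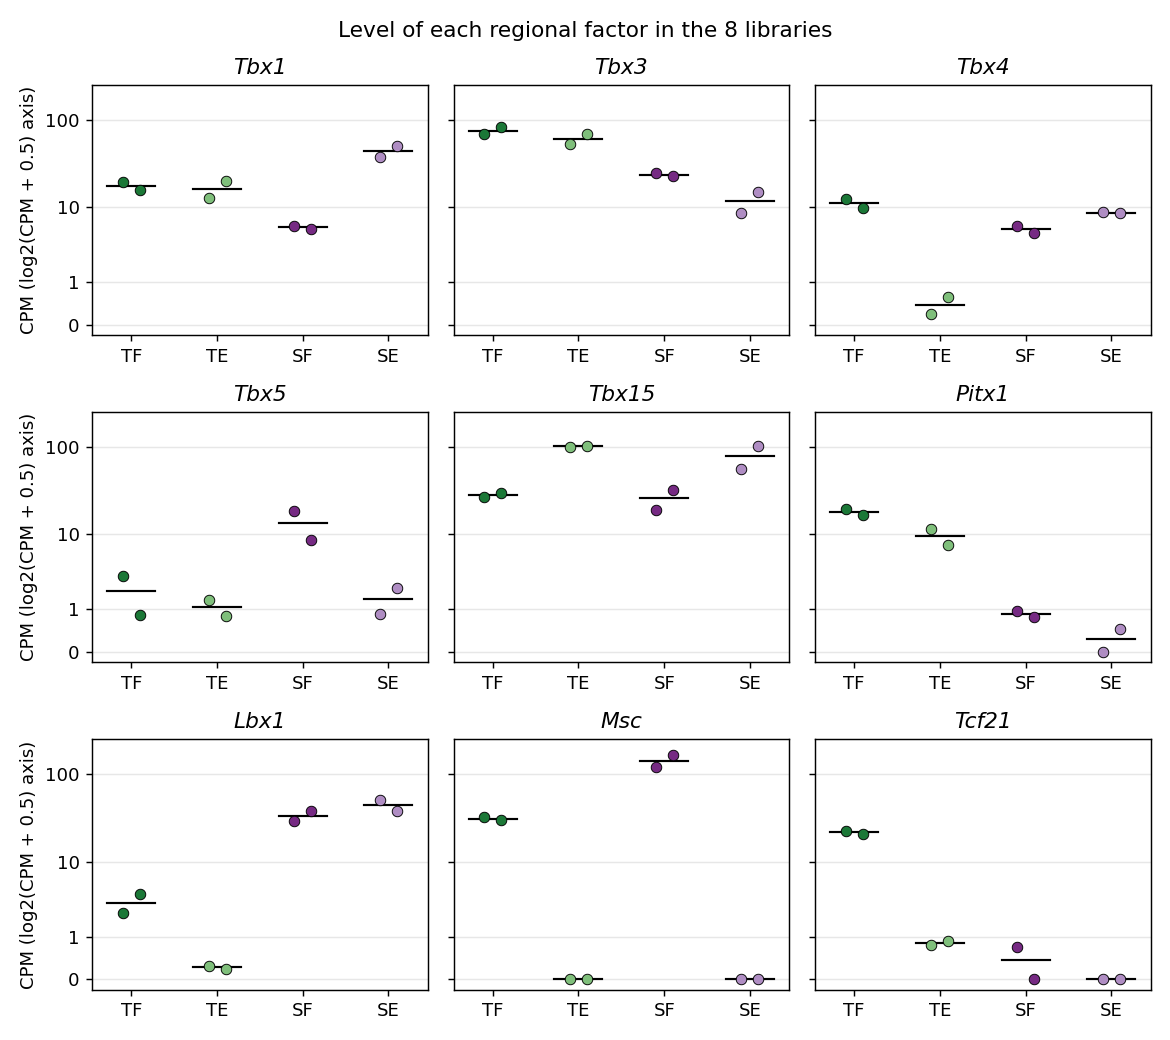
CPM of each of the 9 regional factors (axis log2(CPM + 0.5)) in TF, TE, SF and SE, with 1 point for each library and a line at the mean of the 2 libraries. Msc is at 0 in the 4 expanded libraries, Lbx1 is high only in SF and SE, and Pitx1 is high only in TF and TE.

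Of the head muscle factors, Msc fell to 0 counts in culture in both origins. Msc, a repressor that binds the same E-box sites as MyoD, lies on the minus strand of chromosome 1 (GRCm38, 14753346 to 14755992, ENSMUSG00000025930.6). It had 32.5 and 30.6 CPM in TF1 and TF2 and 121 and 166 CPM in SF1 and SF2. In TE1, TE2, SE1 and SE2 it had 0 counts, a limit of 0.141 to 0.172 CPM when set at 3 counts per library, which covers counting error only. The fresh and expanded libraries therefore did not overlap. Msc was at least 205-fold lower in TE than in TF (adjusted p = 1.07e-05, edgeR's quasi-likelihood test) and at least 917-fold lower in SE than in SF (adjusted p = 3.48e-06). Between the fresh groups its log2 difference was -2.19 in TF versus SF (standard error 0.26, adjusted p = 0.00119). Of the 6988 genes with at least 10 CPM in all 4 fresh libraries, 15 (0.215%) had 0 counts in all 4 expanded libraries, Msc among them. Of the 31-base words of its transcripts, 20.5% also occur in transcripts of other genes, foremost Gm9947, which overlaps it on the other strand and is not in the table used here. The genes whose log2 levels followed Msc most closely over the 8 libraries were Lama3, Sox17 and Galnt15 (Pearson r = 0.999, 0.998 and 0.998, given as a description over 4 groups of 2 libraries). Lama3 had 196.6 and 197 CPM in SF and 51.7 in both TF libraries. It had 0.0504 CPM in TE1 and 0 in TE2, SE1 and SE2. Markers of other cell types also fell with Msc. The sum of 6 endothelial markers was 273.5 and 355 CPM in SF and 236 and 69.6 in TF, against 0.467 to 2.22 in the expanded libraries, where Kdr, Emcn and Cldn5 were at 0, and Sox17 is itself an endothelial gene. TF1 and TF2 differed in that sum and were close in Msc and in the fibro-adipogenic sum, at 5303 and 5964 CPM. The part of these cells in the Msc level was not tested.

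Tcf21, which acts together with Msc in jaw muscle and is also a gene of embryonic mesenchyme, was a TF gene (chromosome 10, minus strand, 22817281 to 22820174, ENSMUSG00000045680.8). It had 22.8 and 20.8 CPM in TF1 and TF2, 0.706 and 0.830 in TE1 and TE2, 0.654 and 0 in SF1 and SF2, and 0 counts in both SE libraries. TF stood above the other 3 groups without overlap, and the others lay below 1 CPM. Tcf21 fell by 4.81 on the log2 scale from TF to TE (standard error 1.08, adjusted p = 0.0117) and was 6.05 higher in TF than in SF (standard error 1.18, adjusted p = 0.00743). The size of the second difference rests on the 9 counts of SF1, being 5.06 without SF replicate 2. Without SF replicate 1 the remaining SF library was at 0 and no size could be given. TE had 14 and 16 counts against 0 in SE, at least 4.91-fold higher, but the difference was not called (adjusted p = 0.0634, and 0.00014 to 0.116 over the alternatives). It was called by DESeq2, without the filter and without either SF library. The difference of SE from SF, at most 9 counts, was not called by edgeR (adjusted p = 0.0535, and 0.00307 to 0.102 over the alternatives), but was called by DESeq2 (0.00899), without the filter (0.00307) and without TE replicate 1 (0.0408), TE replicate 2 (0.0402) or SF replicate 2 (0.00429). The TF libraries also held markers of other cell types. Their sums were 5303 to 5964 CPM for the fibro-adipogenic, 410 to 643 for the cartilage and 103 to 316.5 for the epithelial list. Most of the fibro-adipogenic sum in TF was Col15a1. The cartilage sum was 262 and 283 CPM in SF and 125 and 64.7 in SE, against 12.5 and 12.7 in TE. Outside TF most of it was Sox9, at 249.9 and 279 CPM in SF, 124.8 and 64.37 in SE and 11.15 and 11.94 in TE. Col2a1 of the same list had 378.4 and 136.3 CPM in TF but 6.47 and 2.63 in SF. The epithelial sum was 11.3 and 1.75 CPM in SF. SF, with 1492 to 2514 CPM of the fibro-adipogenic list, had almost no Tcf21. The endothelial sum was 236 CPM in TF1 and 69.6 in TF2, and the haematopoietic sum 347 and 29.9. Tcf21 and the fibro-adipogenic sum were close in both. In TE1 and TE2 the fibro-adipogenic sum was 14.3 and 16.7 CPM. Of its genes there, Col15a1 had 7.565 and 14.2 CPM and Cd34 0.706 and 0.934, while Dpt and Smoc2 were at 0. The part of these cells in the Tcf21 level was not tested. Dmbt1, Lama1 and Fkbp14 had the most similar pattern (r = 0.993, 0.991 and 0.986 over 8 libraries).

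**Figure D2:**
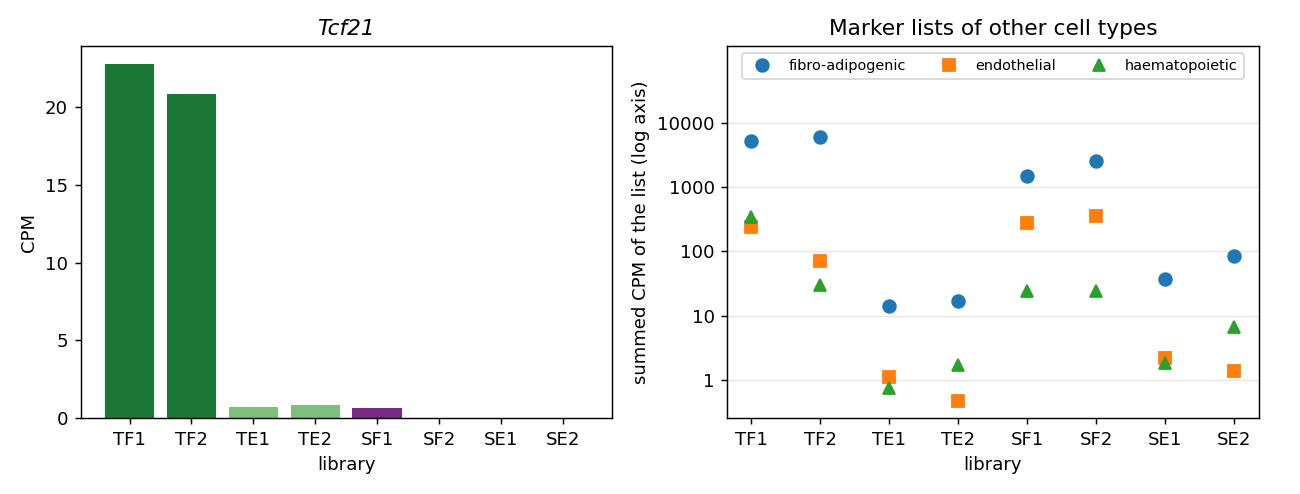
Tcf21 in CPM in each library (left) and the summed CPM of fibro-adipogenic, endothelial and haematopoietic marker lists on a log axis (right). Tcf21 reaches 22.8 and 20.8 CPM in TF and stays below 1 CPM in SF, where the fibro-adipogenic sum is 1492 and 2514 CPM.

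Tbx1, the T-box factor that specifies pharyngeal muscle, rose with culture in satellite cells, and its change differed between the origins. It lies on chromosome 16, minus strand, 18580979 to 18590671 (ENSMUSG00000009097.10). Its level was 5.96 and 5.45 CPM in SF1 and SF2 and 38.1 and 51.1 in SE1 and SE2, whereas TF1 and TF2 had 19.4 and 15.7 and TE1 and TE2 12.8 and 20.3. The satellite cell libraries thus held both the lowest and the highest values, and the 2 teratoma-derived groups overlapped between them. Tbx1 rose by 2.96 on the log2 scale in SE over SF (standard error 0.35, adjusted p = 0.000161). In TE versus TF the change was -0.088 (standard error 0.33, adjusted p = 0.868), and the change differed between origins by -3.05 (standard error 0.47, adjusted p = 0.00306, interaction). The origin difference therefore had opposite signs, 1.62 in TF versus SF (standard error 0.34, adjusted p = 0.00840) and -1.43 in TE versus SE (standard error 0.33, adjusted p = 0.0297). The call in TE versus SE was lost without TE replicate 1 (-1.12, adjusted p = 0.269), TE replicate 2 (-1.80, 0.0589) or SE replicate 2 (-1.21, 0.113). In order of mean, SE lay above TF (TF versus SE adjusted p = 0.0159, lost without TF replicate 2 at 0.0907 or SE replicate 2 at 0.0850), TF and TE overlapped, and TE lay above SF (adjusted p = 0.00493, lost without TE replicate 2 at 0.0536). The genes closest in pattern were Fundc2, Ddr1 and E2f8 (r = 0.983, 0.980 and 0.979), of which E2f8, a cell cycle factor, had 59.1 and 57.5 CPM in SE and 5.89 and 2.89 in SF.

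Lbx1 was a satellite cell gene in both the fresh and the expanded state. Lbx1 lies on chromosome 19, minus strand, 45232684 to 45235812 (ENSMUSG00000025216.9). It had 29.5 and 38.1 CPM in SF1 and SF2 and 50.9 and 38.0 in SE1 and SE2. TF1 and TF2 had 2.27 and 3.99 CPM, and TE1 and TE2 0.202 and 0.156, from 4 and 3 counts. SF and SE overlapped, and every satellite cell library lay above every teratoma-derived library. Its log2 fold change was -3.43 in TF versus SF (standard error 0.38, adjusted p = 0.000395) and -7.90 in TE versus SE (standard error 0.50, adjusted p = 4.07e-05). Culture lowered it by 4.07 in the teratoma-derived cells (standard error 0.50, adjusted p = 0.000320) while the change was 0.40 in satellite cells (standard error 0.34, adjusted p = 0.359), an interaction of -4.47 (standard error 0.60, adjusted p = 0.00169). Its closest companions were Hoxc10, Kdm5d and Six2 (r = 0.989, 0.985 and 0.981). Hoxc10, a homeobox gene of the hindlimb and lumbar level, had 47.8 and 64.1 CPM in SF and 38.7 and 38.5 in SE, against 1.26 and 3.59 in TF and 0.151 and 0 in TE. Kdm5d, a Y-linked gene, had 13.7 to 39.7 CPM in the satellite cell libraries, 2.10 and 2.23 in TF and 0 in both TE libraries. This single Y-linked gene thus moved with Lbx1, and the part of donor sex in the result was not tested.

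Pitx1, the hindlimb identity factor, had the reverse distribution (chromosome 13, minus strand, 55825051 to 55836192, ENSMUSG00000021506.7). It had 19.9 and 16.8 CPM in TF1 and TF2, 11.5 and 7.53 in TE1 and TE2, 0.945 and 0.740 in SF1 and SF2, and 0 and 0.400 in SE1 and SE2. Every teratoma-derived library lay above every satellite cell library. Pitx1 was 4.43 higher on the log2 scale in TF than in SF (standard error 0.90, adjusted p = 0.00740) and 5.59 higher in TE than in SE (standard error 1.001, adjusted p = 0.00963). The second value was 4.55 without SE replicate 1, which holds no Pitx1 count. Without SE replicate 2, which holds 7, SE was at 0 and no size could be given. Neither change in culture was called, at -0.95 in TE versus TF (adjusted p = 0.389) and -2.11 in SE versus SF (adjusted p = 0.114), although DESeq2 (adjusted p = 0.0322) and a fit without a filter on low counts (0.0374) called the latter. Of the 31-base words of Pitx1, 8.19% occur in other genes, foremost Gm28760, which overlaps it.

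Tbx3, a T-box repressor of limb and flank mesenchyme, followed Pitx1 at a higher level (chromosome 5, plus strand, 119670669 to 119684724, ENSMUSG00000018604.18). Its level was 68.7 and 82.96 CPM in TF1 and TF2, 54.1 and 69.0 in TE1 and TE2, 24.9 and 22.8 in SF1 and SF2, and 8.58 and 15.0 in SE1 and SE2. TF and TE overlapped, and both lay above SF, which lay above SE. Tbx3 was 1.67 higher on the log2 scale in TF than in SF (standard error 0.29, adjusted p = 0.00342) and 2.38 higher in TE than in SE (standard error 0.30, adjusted p = 0.00160). In satellite cells it fell by 1.02 with culture (standard error 0.29, adjusted p = 0.0198), a call that was lost without SF replicate 1 (-0.95, adjusted p = 0.0713), without SE replicate 1 (-0.64, 0.115) and with only SF and SE in the fit (-1.001, 0.09599). In TE versus TF the change was -0.30 (adjusted p = 0.456). The log2 levels of Tbx3 and Pitx1 had r = 0.966 over the 8 libraries, and Capn6 and Slc40a1 were among the 3 nearest genes of both. Capn6, a calpain family gene, had 318 and 398 CPM in TF, 137.5 and 170.0 in TE, 11.7 and 16.7 in SF and 2.64 and 9.15 in SE.

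Tbx4, the hindlimb target of Pitx1, was nearly lost from TE alone (chromosome 11, plus strand, 85886422 to 85916097, ENSMUSG00000000094.12). It had 12.5 and 9.81 CPM in TF1 and TF2, 6.03 and 4.85 in SF1 and SF2, 8.77 and 8.52 in SE1 and SE2, but 0.151 and 0.519 in TE1 and TE2, from 3 and 10 counts. TE lay below the other 6 libraries without overlap, and TF, SE and SF did not overlap either, though neither TF versus SE (adjusted p = 0.685) nor SE versus SF (0.378) was called. Tbx4 fell by 5.03 on the log2 scale from TF to TE (standard error 0.72, adjusted p = 0.000837) and differed by -4.66 in TE versus SE (standard error 0.71, adjusted p = 0.00450). The sizes depended on which TE library was kept, at -4.38 without TE replicate 1 and -6.11 without TE replicate 2 for the first and -4.03 and -5.76 for the second, and both stayed called. In SE versus SF the change was 0.67 (adjusted p = 0.378), and the change with culture differed between origins by -5.70 (standard error 0.92, adjusted p = 0.00366), at -5.07 without TE replicate 1 and -6.80 without TE replicate 2. High Pitx1 and low Tbx4 thus stood side by side in TE, and low Pitx1 with measurable Tbx4 in SF and SE. Hoxa3, Ptprm and Nrep were the closest in pattern to Tbx4 (r = 0.980, 0.976 and 0.972). Hoxa3 had 10.9 and 5.35 CPM in TF and 0 in both TE libraries.

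Tbx5, the forelimb factor, was highest in SF, at 18.9 and 8.55 CPM (chromosome 5, plus strand, 119832668 to 119885219, ENSMUSG00000018263.11). The other 6 libraries lay between 0.778 and 3.03 CPM, and TF, SE and TE overlapped. Tbx5 fell by 3.21 on the log2 scale from SF to SE (standard error 0.92, adjusted p = 0.0196) and was 2.84 lower in TF than in SF (standard error 0.91, adjusted p = 0.0471). Both calls were weak. The first was lost without SF replicate 1 (-2.53, adjusted p = 0.139) or SE replicate 1 (-2.66, 0.0837) and was -3.99 without SE replicate 2. The second was lost without TF replicate 2 (-2.17, 0.184), SF replicate 1 (-2.18, 0.253) or SF replicate 2 (-3.29, 0.0530) and when tested against the fold threshold by glmTreat (0.0572), and was -4.08 without TF replicate 1. The difference of TE from SF, -3.64 (adjusted p = 0.0107), was lost without TE replicate 2 (-3.24, 0.0618) or SF replicate 1 (-2.95, 0.0849). The genes nearest in pattern, Tex26, Fam227a and Ffar2 (r = 0.985, 0.983 and 0.980), likewise stood higher in SF1 than in SF2, with Tex26 at 5.96 and 2.69 CPM.

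Tbx15, a T-box factor of the axial skeleton that is also expressed in glycolytic muscle fibers, was the member that culture raised in both origins (chromosome 3, plus strand, 99240381 to 99354259, ENSMUSG00000027868.11). It had 26.9 and 30.2 CPM in TF1 and TF2, 19.5 and 32.8 in SF1 and SF2, 99.9 and 104 in TE1 and TE2, and 56.5 and 102.7 in SE1 and SE2. All 4 expanded libraries lay above all 4 fresh libraries. Tbx15 rose by 1.84 on the log2 scale in TE over TF (standard error 0.33, adjusted p = 0.00282) and by 1.61 in SE over SF (standard error 0.32, adjusted p = 0.00345). The changes were not shown to differ between origins (difference 0.23, standard error 0.45, adjusted p = 0.814), nor were TE and SE (0.36, standard error 0.31, adjusted p = 0.601) or TF and SF (0.13, standard error 0.32, adjusted p = 0.818). Gprc5c, Macrod1 and Ube3b were closest to it (r = 0.983, 0.982 and 0.982).

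**Figure D3:**
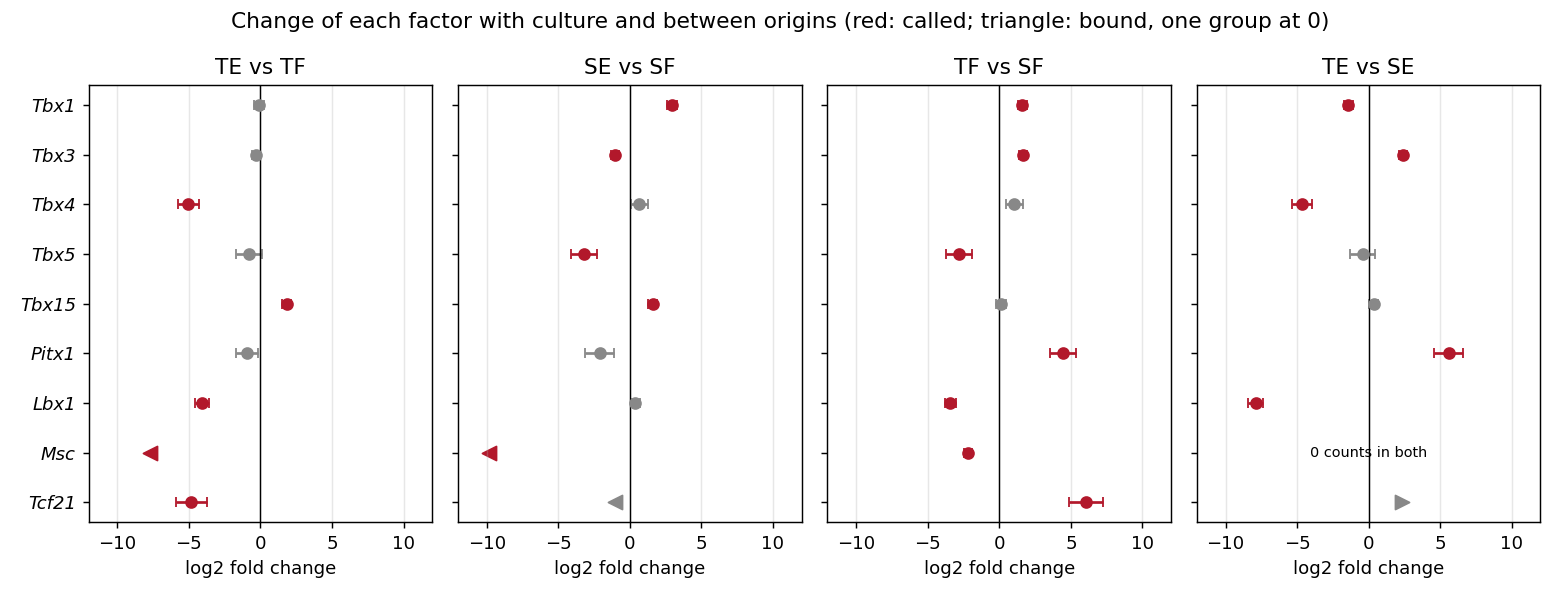
Log2 fold change of each factor in TE versus TF, SE versus SF, TF versus SF and TE versus SE, with bars of 1 standard error and called changes in red. Triangles are bounds for comparisons in which 1 group has 0 counts, and they point toward larger changes. Culture changed Tbx15 upward and Msc downward in both origins, and Lbx1 and Pitx1 differed between the origins in both states in opposite directions.

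Taken by comparison, in TE versus TF 5 of the 9 factors were called, 1 higher (Tbx15) and 4 lower (Tbx4, Lbx1, Msc, Tcf21), against 26.1% of all 17582 tested genes (9.86% higher and 16.2% lower). In SE versus SF 5 were called, 2 higher (Tbx1, Tbx15) and 3 lower (Tbx3, Tbx5, Msc), against 40.7% of all genes (20.9% higher and 19.8% lower). In TF versus SF 7 were called, 4 higher (Tbx1, Tbx3, Pitx1, Tcf21) and 3 lower (Tbx5, Lbx1, Msc), against 24.2% (15.1% higher and 9.13% lower, that is 2655 and 1606 genes, which became 2110 and 1943 under median-ratio size factors). In TE versus SE 5 were called, 2 higher (Tbx3, Pitx1) and 3 lower (Tbx1, Tbx4, Lbx1), against 7.21% (3.15% higher and 4.07% lower). The interaction called 3, all negative (Tbx1, Tbx4, Lbx1), against 14.3% (4.7% positive and 9.62% negative). A negative value means a lower log2 change in TE versus TF than in SE versus SF, not a lower level. Across both state and origin, TF versus SE called 7, 4 higher (Tbx3, Pitx1, Msc, Tcf21) and 3 lower (Tbx1, Tbx15, Lbx1), against 23.6% (14.5% higher and 9.16% lower). TE versus SF called 8, 4 higher (Tbx1, Tbx3, Tbx15, Pitx1) and 4 lower (Tbx4, Tbx5, Lbx1, Msc), against 46.6% (23% higher and 23.6% lower). The calls in SE versus SF numbered 3 without SF replicate 1 or without SE replicate 1, and 7 with DESeq2 or without the filter. The origin comparisons of fresh and of expanded cells use separate libraries. Tbx3 and Pitx1 were higher in the teratoma-derived cells in both, as were 1.09% of all genes, Lbx1 was lower in both, as were 0.904%, and Tbx1 was higher in TF and lower in TE, as were 0.899%. Likewise Tbx15 was raised by culture in both origins, as were 6.34% of all genes, and Msc was lowered in both, as were 9.81%. No factor was lowered in TE and raised in SE, as were 0.865% of all genes. The median change over the 9 factors was -0.95 in TE versus TF, -1.02 in SE versus SF and 1.04 in TF versus SF, against -0.18, -0.23 and 0.080 over all tested genes.

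Per kilobase of merged exons, the scale on which levels of different genes can be compared, the leading factor differed between states. Msc had the highest mean in both fresh groups, with 56.4 ± 12.7 CPM per kb in SF and 12.4 ± 0.531 in TF (SD, n = 2 each). In TF it was not apart from Tbx3, at 11.5 ± 1.52, whose spread reached the level of Msc, and Tcf21 followed at 9.28 ± 0.593. In SF it was followed by Lbx1 at 13.6 ± 2.44 and Tbx15 at 6.97 ± 2.51. Tbx15 led in both expanded groups, with 27.3 ± 0.847 in TE and 21.2 ± 8.72 in SE. The next in TE was Tbx3 at 9.29 ± 1.60 and in SE Lbx1 at 17.9 ± 3.67, which lay within the spread of Tbx15 there.

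Of the 9 factors, 3 had promoter sequence in the RefSeq table used here (build GRCm38.p6, 250 bases before to 50 after a start). A window of each is shown. Lbx1 and Msc, which like Tbx4 and Tcf21 fell in TE, had none there. Capitals mark the E-box CAGCTG, read by factors such as MyoD, Msc and Tcf21, the T-box half-site AGGTGT and the bicoid-type homeobox site TAATCC of Pitx factors, searched on both strands, with no overlap between them in these windows. Of 32851 windows of this length, 16.3% held CAGCTG, 13.7% AGGTGT and 7.06% TAATCC. Tbx4 (chr11:85896515-85896814, plus strand) held 1 CAGCTG. This window lies inside the Tbx4 gene model given above, which starts at 85886422, and not at that start. Of the 2 Tbx1 windows, the one shown (chr16:18590622-18590921, minus strand) held 1 AGGTGT and the other (chr16:18588850-18589149) none of the motifs, and Tcf21 (chr10:22820094-22820393, minus strand) held none of them. A match is a description of the letters and not a site shown to be bound.
Tbx4: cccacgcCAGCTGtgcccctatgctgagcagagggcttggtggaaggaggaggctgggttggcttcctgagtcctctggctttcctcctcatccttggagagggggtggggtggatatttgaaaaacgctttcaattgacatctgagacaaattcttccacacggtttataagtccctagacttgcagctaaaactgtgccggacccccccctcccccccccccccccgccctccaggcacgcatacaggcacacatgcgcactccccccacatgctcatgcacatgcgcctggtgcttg
Tcf21: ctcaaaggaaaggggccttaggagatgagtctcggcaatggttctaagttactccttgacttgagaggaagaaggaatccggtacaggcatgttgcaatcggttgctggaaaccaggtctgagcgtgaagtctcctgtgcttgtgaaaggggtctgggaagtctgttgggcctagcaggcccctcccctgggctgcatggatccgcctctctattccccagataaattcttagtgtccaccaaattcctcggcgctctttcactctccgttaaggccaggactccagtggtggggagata
Tbx1: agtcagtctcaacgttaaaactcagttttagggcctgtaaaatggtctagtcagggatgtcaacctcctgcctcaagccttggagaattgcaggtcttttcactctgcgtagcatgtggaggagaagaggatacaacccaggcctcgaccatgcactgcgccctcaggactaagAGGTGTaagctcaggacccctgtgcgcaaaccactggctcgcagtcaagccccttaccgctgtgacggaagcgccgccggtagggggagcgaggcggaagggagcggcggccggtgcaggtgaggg

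Next to Tbx4, 44.5 kb away on the same strand, lies Tbx2, a T-box gene of the same ancestral pair. Tbx2 had 36.5 and 30.6 CPM in TF, 5.30 and 6.75 in TE, 4.00 and 8.48 in SF and 4.76 and 4.23 in SE. It fell by 2.48 on the log2 scale from TF to TE (standard error 0.45, adjusted p = 0.00308). Tbx2 was also lower in both satellite cell groups than in TF, by 2.43 in SF (adjusted p = 0.00455) and 2.90 in SE (0.001545). Tbx4 had lower means there as well, but neither difference was called (TF versus SF 1.04, adjusted p = 0.237, and TF versus SE 0.37, 0.685). Tlx1, the nearest tested gene to Lbx1 on one side at 75.7 kb, was highest in TE, where Lbx1 was lowest. It encodes a homeobox factor of spleen development and was singled out after its values had been seen. Tlx1 had 1.43 and 3.35 CPM in TF, 11.8 and 14.1 in TE, 0.581 and 0 in SF and 0 counts in both SE libraries. It was at least 82.7-fold higher in TE than in SE (adjusted p = 0.0124), and its change from TF to TE, 2.43, was not called (standard error 1.14, adjusted p = 0.149). Neither were TF versus SF (3.03, adjusted p = 0.116) and the interaction (adjusted p = 0.0617). Eya1, a transcriptional cofactor of muscle precursors and the nearest tested gene to Msc on one side at 443.1 kb, fell with culture in both origins, with log2 changes of -2.87 in TE versus TF (adjusted p = 0.00116) and -1.22 in SE versus SF (adjusted p = 0.0377). Unlike Msc it stayed at 4.24 to 20.7 CPM in the expanded libraries. The other neighbour of Lbx1, Btrc, had 16.9 to 29.1 CPM in every library.

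**Figure D4:**
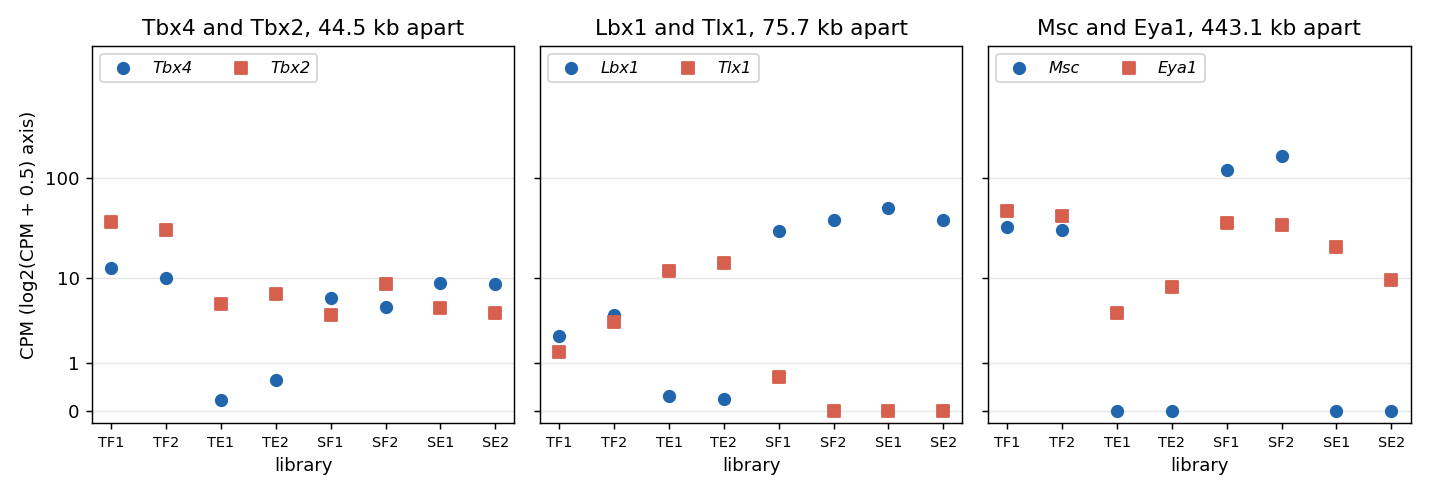
CPM (axis log2(CPM + 0.5)) in each library of Tbx4 with Tbx2, Lbx1 with Tlx1, and Msc with Eya1, genes that neighbour each other. Tlx1 is highest in TE, at 11.8 and 14.1 CPM, where Lbx1 is at 0.202 and 0.156 CPM.

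The other genes of these programs were counted from lists, beside which stand the 26.1% of all tested genes called in TE versus TF, 40.7% in SE versus SF, 24.2% in TF versus SF and 7.21% in TE versus SE. Of 10 other head muscle factors 9 were tested, and 3 were higher and 4 lower in TE versus TF, 3 higher and 2 lower in SE versus SF, 5 higher and 1 lower in TF versus SF, and 2 higher and 1 lower in TE versus SE. Isl1, a factor of pharyngeal and second heart field mesoderm, was higher in the teratoma-derived cells in both states, by 3.55 on the log2 scale in TF versus SF (standard error 0.58, adjusted p = 0.00252) and by 3.24 in TE versus SE (standard error 0.62, adjusted p = 0.0134), with 19.1 and 27.0 CPM in TF. Nkx2-5, a cardiac and pharyngeal homeobox factor, had 0 counts in all 4 satellite cell libraries, 1.51 and 2.55 CPM in TF and 24.5 and 16.1 in TE. It was at least 129.9-fold higher in TE than in SE (adjusted p = 0.00173) and rose by 3.32 from TF to TE (standard error 0.70, adjusted p = 0.0116). Hand2, a factor of branchial arch, heart and limb bud, had 25.3 and 15.5 CPM in TF and at most 0.872 in the other 6 libraries, and its log2 change was -7.23 in TE versus TF (standard error 1.61, adjusted p = 0.0116). Six2 had 13.6 and 10.5 CPM in SF and 27.8 and 12.7 in SE, against at most 3.83 in the teratoma-derived libraries, with a log2 difference of -5.43 in TE versus SE (standard error 0.67, adjusted p = 0.00154).

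All 10 other trunk and limb precursor factors were tested. Of these, 1 was higher and 6 lower in TE versus TF, 2 higher and 5 lower in SE versus SF, 2 higher and 1 lower in TF versus SF, and 2 higher and 3 lower in TE versus SE. Pax3, which acts upstream of Lbx1 in the somite, was like Lbx1 higher in the satellite cells in both states, with 12.4 and 10.9 CPM in SF and 18.5 and 9.72 in SE against 0.757 and 0.558 in TF and 0.404 and 0 in TE. Its log2 difference was -4.13 in TF versus SF (standard error 0.95, adjusted p = 0.0125) and -6.07 in TE versus SE (standard error 1.05, adjusted p = 0.00814). Unlike Lbx1, its change from TF to TE (-1.66, adjusted p = 0.260) and its interaction (-1.93, adjusted p = 0.373) were not called. Meox1, a somite homeobox factor, was distributed the other way, 2.04 higher in TF than in SF (standard error 0.53, adjusted p = 0.0206) and 5.21 higher in TE than in SE (standard error 0.64, adjusted p = 0.00150). Its partner Meox2 fell in both cultures, with log2 changes of -5.97 in TE (standard error 0.84, adjusted p = 0.000763) and -3.09 in SE (standard error 0.71, adjusted p = 0.00675). Hgf, the ligand that guides migrating precursors, had 0 counts in both TE libraries and was at least 85.1-fold lower there than in SE (adjusted p = 0.000972). Its receptor gene Met fell by 1.63 in TE versus TF (standard error 0.27, adjusted p = 0.00180) and rose by 0.89 in SE versus SF (standard error 0.26, adjusted p = 0.0223).

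Of 12 other T-box genes 9 were tested, and 2 were called in TE versus TF (Tbx18 and Tbx2, both lower), 1 in SE versus SF (Eomes, lower), 1 in TF versus SF (Tbx2, higher) and 0 in TE versus SE by edgeR, where 1 had an unadjusted p below 0.05 and DESeq2 called 1. Of 12 limb mesenchyme factors 11 were tested. In TE versus TF 1 was higher and 5 lower, in SE versus SF 1 higher and 4 lower, in TF versus SF 2 higher and 1 lower, and in TE versus SE 2 lower. Prrx1, the general limb mesenchyme factor, lay between 80.6 and 141.6 CPM in all 8 libraries and rose by 0.53 on the log2 scale in TE versus TF (adjusted p = 0.0471). Its change in SE versus SF was similar, at 0.47, but was not called (adjusted p = 0.0521). Emx2 had 0 counts in TE and was at least 106-fold lower there than in TF (adjusted p = 9.62e-05). Shox2 fell in both cultures, with log2 changes of -3.05 in TE (standard error 0.68, adjusted p = 0.00911) and -4.39 in SE (standard error 0.72, adjusted p = 0.00112). Of the myogenic factors, Pax7, Myf5 and Myod1 had means of at least 6.42 CPM in all 4 groups, while Myog had a mean of 0.692 CPM in SF and Myf6 of 0.0519 CPM in TE. All 5 of Pax7, Myf5, Myod1, Myog and Myf6 were called in TE versus TF, 2 higher (Myod1 and Myog) and 3 lower, and 3 were called in SE versus SF, 1 higher (Myog) and 2 lower (Myf5 and Pax7). Pax7 and Myf5 fell in both cultures, Pax7 with log2 changes of -1.49 in TE and -1.38 in SE (adjusted p = 0.00361 and 0.00325).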

How the data were processed

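RNA was measured in 8 libraries (SMARTer stranded total RNA kit, 150-base paired reads). The authors deposited 1 table of estimated counts per gene symbol, not normalized, and the submitters' processing notes name CASAVA, kallisto 0.44.0 and the builds GRCm38 and mm10, without their roles. How transcripts were summed to genes is not given in the sources used here. Whole numbers made up 74.4% to 84.4% of each library's values, the rest being split reads, so overlapping or similar genes can exchange counts. The ribosomal precursor Rn45s took 7.99% to 21.3% of a library.

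Counts were rounded, filtered with edgeR's filterByExpr (17582 of 24980 genes kept), scaled by TMM and fitted once with all 4 groups, using quasi-likelihood F tests (edgeR), each comparison adjusted by Benjamini-Hochberg over all tested genes. A change was called at an adjusted p below 0.05 and a fold above 1.25, the thresholds of the study's methods. Standard errors were derived from the fold and the F statistic. The common dispersion was 0.233. Groups with 0 counts were set to 3 counts per library for bounds. Replicates differed by more than counting noise (chi-square per degree of freedom 11.7 to 87.2). The fit was checked on simulated counts in which only genes of higher counts were altered, and only in TE. The check therefore does not cover factors with few counts.

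The members and lists were chosen with earlier results of these data known. Genes named were the 9 members, the called genes of each list with the largest changes, and the 3 genes of highest Pearson r with each member on log2(CPM + 0.5), among genes of at least 1 CPM. Tlx1, Btrc, Eya1 as a neighbour and Prrx1 were added after their values were seen. A gene withheld from this text is not reported here. Gene positions, exon lengths and 31-base words came from GENCODE M21 (GRCm38), matched by symbol. Alternatives were median-ratio size factors, no filter, DESeq2, only the 2 groups compared, a replicate block, glmTreat at the fold threshold, no Rn45s and each library left out. The versions were R 4.3.3, edgeR 4.0.16 and DESeq2 1.42.0. Engraftment and protein measurements were not analysed here.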

Additional observations from a re-analysis of the deposited data

Results flagged for a closer look

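The effect of culture differed between the teratoma-derived and the satellite cells for 3 of the 9 factors, by the interaction term of edgeR's fit. The log2 change in TE versus TF minus that in SE versus SF was -3.05 for Tbx1, which rose in the satellite cells only, -5.70 for Tbx4, which fell in the teratoma-derived cells only, and -4.47 for Lbx1, which also fell only there. The adjusted p-values were 0.00306, 0.00366 and 0.00169. All 3 stayed called with each of the 8 libraries left out in turn and under the other alternatives run. The interactions of Tbx3 (0.71) and Pitx1 (1.16) were not called with all 8 libraries, but this depended on SE replicate 2. Without it that of Tbx3 was 1.16, and Pitx1, then at 0 in SE, had no size. With 2 libraries in a group no library could be tested as an outlier.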

How the results depend on the processing

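Of 412 values of the factors under the other settings, 401 kept their direction and their side of the threshold, and of 479 with 1 library left out, 446 did. Calls that the 9 factors lost are given beside their results. Directions turned only for differences that were not called. With 1 library left out, Tbx1 in TE versus TF ranged from -0.43 to 0.24 (0.096 without TF replicate 1), Tbx5 from -1.43 to 0.48 in TE versus TF, from -0.94 to 0.37 in TE versus SE and from -0.90 to 1.16 in TF versus SE (-0.17 without SE replicate 1), and Tbx15 from -0.22 to 0.57 in TF versus SF and from -0.21 to 0.72 in the interaction (-0.12 without SE replicate 1). Tbx15 in TF versus SF also turned under median-ratio size factors (-0.028), DESeq2 (-0.027) and without Rn45s (-0.014). Median-ratio size factors moved the median over all genes by -0.19 in SE versus SF, -0.16 in TF versus SF, -0.21 in TE versus SF and 0.14 in the interaction (log2). Comparisons of Msc or Tcf21 between groups at 0 in both, and their interactions, gave no value.

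Over all genes, TE versus SE called 1268, but 2260 without the filter and 2122 with DESeq2. Leaving out 1 library gave 2739 to 5439 calls in TE versus TF (4581 with all 8), 2639 to 5072 in TF versus SF (4261), 653 to 1698 in TE versus SE and 1467 to 2996 in the interaction (2517), where the lone library left in a group is assumed to vary like the others. DESeq2 split SE versus SF into 3307 higher and 4937 lower (3677 and 3475 in edgeR), TF versus SF into 2475 and 2644, TE versus SF into 3471 and 5627 (4042 and 4157) and the interaction into 1500 and 1918 (826 and 1691). Same-numbered libraries did not deviate together (r of deviations -0.0201 to 0.0322 over the 6 pairs of groups). With 1 difference per group, this cannot tell whether libraries of the same number share a source. The main fit used no pairing. A replicate block gave 4321 calls in TE versus TF and changed no call of the 9 factors. With 2 libraries per group and 3 to 10 counts behind the lowest levels, changes of Tbx5, and the sizes for Tbx4, Tcf21 and Pitx1, are the least precise.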
